A study of Rattus norvegicus with 6 samples.

Results

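The 10 genes described here encode transporters that carry glucose, related sugars, inositol and monocarboxylates across the membranes of kidney tubule cells: Slc5a1, Slc5a2, Slc5a3, Slc5a8, Slc5a10, Slc5a12, Slc2a1, Slc2a2, Slc16a1 and Slc16a14. They were found on the array through the RefSeq accession of each non-control probe, which gave 19 of 61573 probes and 10 of 15284 named genes. The set was chosen on the measured log2 differences between o-nitroanisole and corn oil. Those differences are therefore given as descriptions without a test, and they support nothing by themselves.

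Arrays of Agilent's one-colour type, labelled with Cy3, measured total RNA of renal cortex from 6 male Sprague-Dawley rats of the stock Crl:CD(SD), with 1 array for each rat. The control group was 3 rats given corn oil for 4 weeks. The treated group was 3 rats given o-nitroanisole, a nitroaromatic chemical, for 4 weeks at 400 mg/kg/day. All rats were 5 weeks old at purchase, and the labels name 3 animals in each group.

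Filtered glucose is taken up from the tubule fluid by sodium-coupled transporters of the SLC5 family in the brush border of the proximal tubule, and it leaves the cell towards the blood through facilitative transporters of the SLC2 family. SGLT2 (Slc5a2) with GLUT2 (Slc2a2) works in the early proximal tubule, and SGLT1 (Slc5a1) takes up the remaining glucose further along. Lactate, pyruvate, ketone bodies and nicotinate are recovered in the same way, by the low-affinity carrier SMCT2 (Slc5a12) in the early and the high-affinity carrier SMCT1 (Slc5a8) in the late proximal tubule, while SLC16 carriers move monocarboxylates with protons.

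Expression is given as the log2 of the processed signal divided by the 75th percentile of its array, so that 0 is the 75th percentile. A gene is represented by its brightest probe. A difference is the treated mean minus the control mean, and its standard error (SE) is limma's moderated one. The 75th percentile lay between 905 and 1041 signal units, and between 66.4% and 71.5% of the probes were well above background. With 3 arrays per group, the number of arrays limits the precision. The control arrays shared slide 1 and scan 1, and the treated arrays shared slide 2 and scan 2. Treatment, slide and scan therefore cannot be told apart. All 19 probes of the transporters were well above background on all 6 arrays. Levels of different genes are not ranked against each other, since each level depends on its probe.

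Of the 10 transporters, 7 lay higher and 3 lower with o-nitroanisole. The groups did not overlap for 4 that lay higher (Slc5a2, Slc5a8, Slc5a12 and Slc2a2), where 17.6% of all 32428 tested features had non-overlapping groups in that direction. They did not overlap for 1 that lay lower (Slc5a1), where 9.56% of features did so. By limma with default moderation 0 features passed a Benjamini-Hochberg adjusted p of 0.05 (0.00%), and 6142 features had an unadjusted p under 0.05 (18.9%; 11.8% higher and 7.12% lower). The fit with trend and robust moderation called 522 features (1.61%; 1.24% higher and 0.373% lower), among them Slc5a8 and no other transporter of the set. Nothing is read from these counts, because the same contrast chose the genes.

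**Figure D1:**
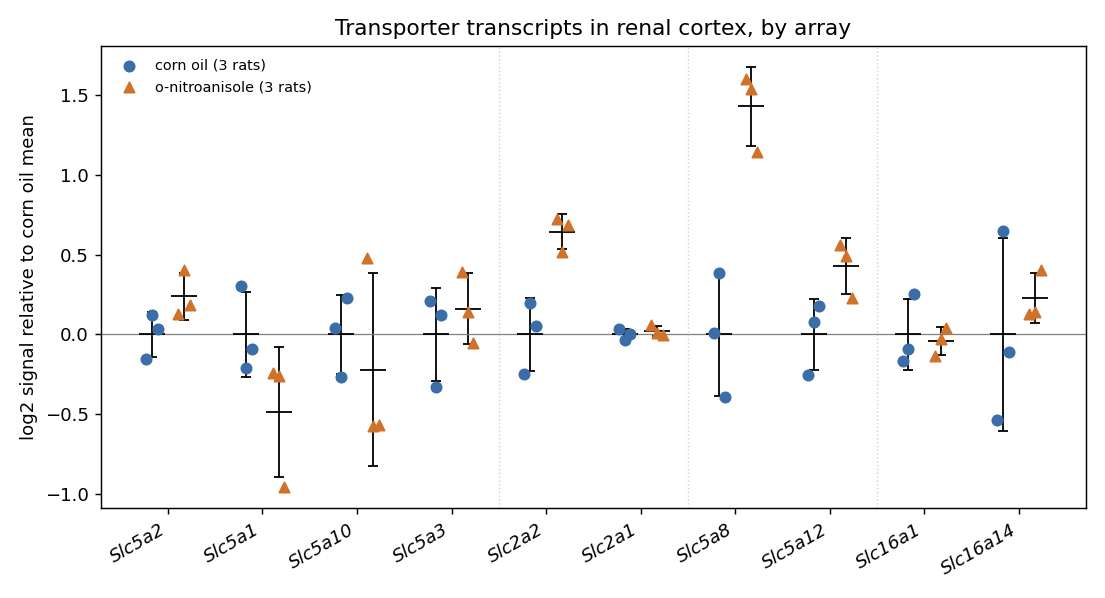
The vertical axis is the log2 signal of each array relative to the mean of the corn oil arrays, for the brightest probe of each transporter. Circles are corn oil rats, triangles are o-nitroanisole rats, dashes are means and bars are SDs (n = 3 per group). Slc5a8 and Slc2a2 show the widest gaps between groups, while the arrays of Slc2a1 lie close together.

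Slc5a8, which encodes the high-affinity sodium-coupled monocarboxylate carrier SMCT1, showed the largest difference of the set. Its log2 signal was 0.17, 0.55 and -0.23 on the corn oil arrays and 1.76, 1.71 and 1.31 on the o-nitroanisole arrays. All 3 treated rats lay above all 3 controls, and the groups were 0.76 log2 apart at their nearest values. The mean difference was 1.43 ± 0.23 log2 (SE, n = 3 per group), a level 2.69-fold higher. With each array left out in turn it lay between 1.23 and 1.62 log2. Slc5a8 has 1 probe on the array, so that no other probe bears on the value. In RNA from whole cortex, more cells of a type and more RNA per cell cannot be told apart, for this gene and those that follow.

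Slc5a12, which encodes the low-affinity carrier SMCT2, lay higher by a smaller amount. Its log2 signal was 1.56, 1.89 and 1.99 with corn oil and 2.37, 2.30 and 2.04 with o-nitroanisole. The groups were 0.05 log2 apart, so that the lowest treated rat was close to the highest control. The difference was 0.43 ± 0.15 log2, a level 1.35-fold higher. The other probe gave 0.46 log2, but its groups overlapped, and they also overlapped when the probes were averaged.

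Slc5a2 encodes SGLT2, the high-capacity glucose carrier of the early proximal tubule. Its log2 signal was 6.89, 7.17 and 7.08 with corn oil and 7.18, 7.45 and 7.23 with o-nitroanisole. The groups were 0.01 log2 apart. The difference was 0.24 ± 0.11 log2, a level 1.18-fold higher, and it was 0.24 and 0.33 for the other probes. With quantile scaling in place of the 75th percentile the difference was 0.08 log2 and the groups overlapped.

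Slc5a1, which encodes the high-affinity glucose carrier SGLT1, lay lower. Its log2 signal was -1.34, -1.85 and -1.73 with corn oil and -1.88, -1.90 and -2.60 with o-nitroanisole. The groups were 0.03 log2 apart, and o-nitroanisole replicate 3 lay well below the other arrays. The difference was -0.49 ± 0.24 log2, or 1.40-fold lower, and -0.25 without o-nitroanisole replicate 3. The dimmer probe gave -0.22 log2 with groups that overlapped. With quantile or median scaling the groups of the brightest probe overlapped as well.

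Slc5a10 and Slc5a3 had groups that overlapped. Slc5a10, which encodes SGLT5, a carrier of mannose and fructose in the proximal tubule, had log2 signals of 3.81, 3.50 and 3.995 with corn oil and 4.25, 3.20 and 3.20 with o-nitroanisole. Replicate 1 of the treated rats lay above every control and the other treated rats below every control. The mean difference was -0.22 ± 0.32 log2, -0.57 without o-nitroanisole replicate 1 and -0.04 without o-nitroanisole replicate 2. Slc5a3, which encodes the sodium/myo-inositol carrier SMIT1, had log2 signals of 2.58, 2.04 and 2.50 with corn oil and 2.77, 2.52 and 2.32 with o-nitroanisole. Its difference was 0.16 ± 0.18 log2, with other probes at 0.35 and 0.20, and -0.0041 without corn oil replicate 2.

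Among the facilitative carriers, Slc2a2, the GLUT2 exit route of the early proximal tubule, lay higher. Its log2 signal was 3.31, 3.75 and 3.61 with corn oil and 4.28, 4.08 and 4.25 with o-nitroanisole. All treated rats lay above all controls, with 0.32 log2 between the nearest values. The difference was 0.64 ± 0.13 log2, a level 1.56-fold higher. The other probes gave 0.76 and 0.65 log2, also with groups that did not overlap, so that all 3 probes gave differences of a like size. With each array left out in turn the value lay between 0.52 and 0.74 log2.

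Slc2a1 encodes GLUT1, a glucose carrier of many cell types. Its log2 signal was 1.80, 1.73 and 1.77 with corn oil and 1.83, 1.78 and 1.77 with o-nitroanisole. The groups overlapped, and the SD was 0.035 within corn oil and 0.032 within o-nitroanisole, the smallest spreads of the set. The difference was 0.02 ± 0.06 log2, and its sign turned with quantile scaling (-0.0098).

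The proton-coupled carriers had groups that overlapped. Slc16a1, which encodes the lactate and pyruvate carrier MCT1, had log2 signals of 1.53, 1.60 and 1.95 with corn oil and 1.56, 1.66 and 1.73 with o-nitroanisole. Its difference was -0.04 ± 0.13 log2, 0.0098 under normexp background correction and 0.08 without corn oil replicate 3. Slc16a14, a member of the same family with little known about its substrates, had log2 signals of 1.06, 2.25 and 1.49 with corn oil and 1.73, 1.74 and 2.01 with o-nitroanisole. The control rats spanned the treated ones, with an SD of 0.60 against 0.16. The difference was 0.23 ± 0.30 log2, and it ranged from -0.04 without corn oil replicate 1 to 0.55 without corn oil replicate 2.

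**Figure D2:**
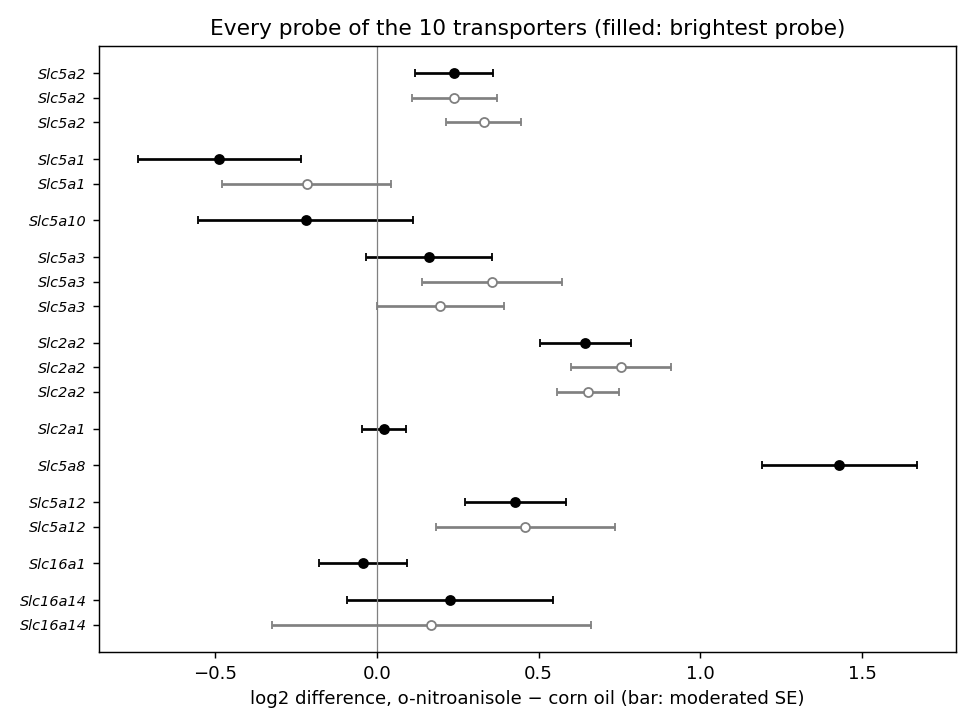
The horizontal axis is the log2 difference, o-nitroanisole minus corn oil, of each of the 19 probes fitted on its own, with the moderated SE as the bar (n = 3 per group). Filled points are the brightest probes. The 3 probes of Slc2a2 lie between 0.64 and 0.76, and no gene has probes on both sides of 0.

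Pairs of carriers for the same substrates were set side by side within each array. The size of such a difference depends on the probes, so each was centred on the corn oil mean. Slc5a8 minus Slc5a12 was 0.26, 0.30 and -0.57 with corn oil and 1.04, 1.05 and 0.92 with o-nitroanisole. The high-affinity monocarboxylate carrier thus lay higher relative to the low-affinity one in every treated rat, by 1.00 log2 on average. For glucose, Slc5a2 minus Slc5a1 (low affinity minus high affinity) was -0.45, 0.33 and 0.13 with corn oil and 0.37, 0.66 and 1.14 with o-nitroanisole. The groups of this pair were close at their nearest values, and the pair uses the brightest probe of Slc5a1 only. Slc2a2 minus Slc2a1 was -0.28, 0.23 and 0.05 with corn oil and 0.67, 0.51 and 0.69 with o-nitroanisole. These values come from the same contrast as the single genes and carry no test.

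**Figure D3:**
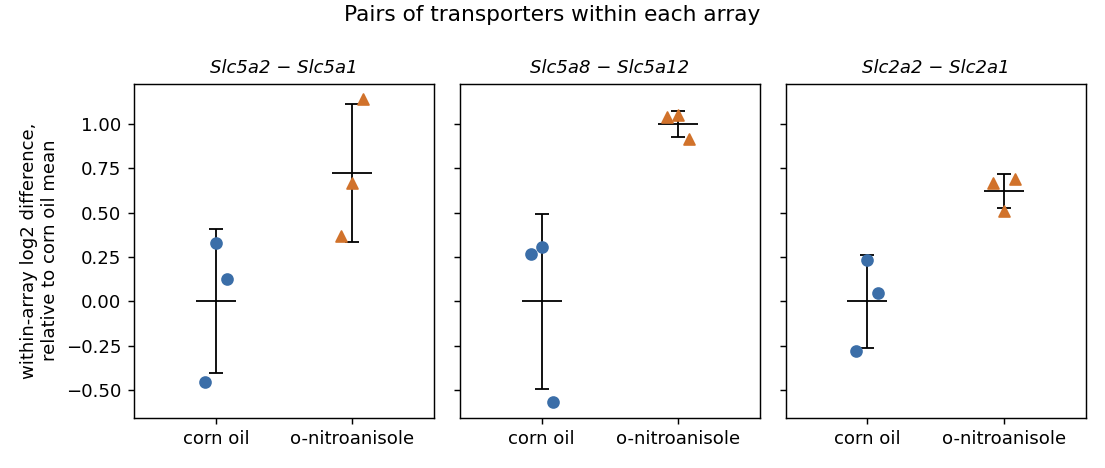
The vertical axis is the difference in log2 signal between a pair of transporters within each array, relative to its corn oil mean. Circles are corn oil rats, triangles o-nitroanisole rats, dashes means and bars SDs (n = 3 per group). The treated arrays lie above the control arrays in each panel, with mean shifts of 0.72, 1.00 and 0.62 log2. For Slc5a2 minus Slc5a1 the nearest values, 0.33 with corn oil and 0.37 with o-nitroanisole, lie close together.

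The promoters of 9 of the 10 genes were found in RefSeq's table for build GRCr8. The 250 bases before the start are shown for Slc5a8 and Slc2a2, which lay highest, for Slc5a12, the partner of Slc5a8, and for Slc5a1, which lay lowest. They are Slc5a8 at chr7:25160030-25160279 (plus strand), Slc5a12 at chr3:117633637-117633886 (plus), Slc2a2 at chr2:113540120-113540369 (plus) and Slc5a1 at chr14:81843085-81843334 (minus). Each is written 5′ to 3′ on the gene's strand, and capitals mark the letters of the motifs described next.
Slc5a8: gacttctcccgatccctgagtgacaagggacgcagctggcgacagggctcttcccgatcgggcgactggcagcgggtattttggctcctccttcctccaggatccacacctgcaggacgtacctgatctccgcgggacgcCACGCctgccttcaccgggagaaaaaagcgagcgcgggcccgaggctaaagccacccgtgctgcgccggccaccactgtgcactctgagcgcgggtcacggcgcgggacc
Slc5a12: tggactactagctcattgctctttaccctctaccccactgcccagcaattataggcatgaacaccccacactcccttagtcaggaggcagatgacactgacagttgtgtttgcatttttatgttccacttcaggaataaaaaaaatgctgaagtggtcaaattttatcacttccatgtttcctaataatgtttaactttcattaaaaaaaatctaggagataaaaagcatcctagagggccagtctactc
Slc2a2: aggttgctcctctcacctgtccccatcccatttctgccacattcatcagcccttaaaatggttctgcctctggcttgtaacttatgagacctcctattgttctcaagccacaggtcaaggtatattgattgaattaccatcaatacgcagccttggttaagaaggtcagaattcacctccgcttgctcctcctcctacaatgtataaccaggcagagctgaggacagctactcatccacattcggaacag
Slc5a1: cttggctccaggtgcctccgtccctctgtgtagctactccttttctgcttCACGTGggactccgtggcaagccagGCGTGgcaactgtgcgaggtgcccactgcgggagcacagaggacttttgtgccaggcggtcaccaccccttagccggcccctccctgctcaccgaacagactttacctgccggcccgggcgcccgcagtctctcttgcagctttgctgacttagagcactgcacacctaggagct
The windows of Slc5a8 and Slc5a1 were 66.8% and 62.8% G and C, those of Slc2a2 and Slc5a12 47.2% and 39.6%, and the median of all 27457 promoters was 52.0%.

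Motifs were searched as exact letters on both strands. GCGTG, the core bound by the aryl hydrocarbon receptor, was in 5 of the 9 windows (Slc16a1, Slc2a1, Slc5a1, Slc5a3 and Slc5a8) and in 27.2% of all promoters. In Slc5a8 it lay on the minus strand, 110 to 106 bases before the start. ACGTG, the core of hypoxia-inducible factors, which shares CGTG with the former, was in 3 windows (Slc16a1, Slc2a1 and Slc5a1) and 16.9% of all promoters. TGACNNNGC, the core of the antioxidant response element, was in the window of Slc16a1 and in 10.2% of promoters. CAAAGTCCA of HNF4, TGGAAA of NFAT5 and the TATAAA box were in none of the 9 windows, against 0.331%, 19.5% and 13.1% of promoters. A match is not a binding site, and a missing one says only that these letters are not in this window. Slc5a8 and Slc5a1 both hold GCGTG, and Slc2a2 and Slc5a12 hold none of these motifs. Whether any motif bears on the differences was not tested.

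The genes whose profile over the 6 arrays was nearest were found for the highest and lowest pairs of transporters. Likeness was the root mean square distance of log2 signals after subtracting the corn oil mean, among 11799 named genes. A search of this size always returns near genes. Nearest to Slc5a8 were the secreted protein gene Lect2 (0.21 log2), the zinc importer Slc39a4 (0.27) and the heme oxygenase Hmox1 (0.32). Nearest to Slc2a2 were Slc25a10, the mitochondrial dicarboxylate carrier, Pck1, the enzyme that commits oxaloacetate to gluconeogenesis, and the potassium channel Kcnk2, all at 0.08 log2. Pck1 had log2 signals of 7.05, 7.51 and 7.39 with corn oil and 7.91, 7.89 and 7.88 with o-nitroanisole, with the lowest control at replicate 1 as for Slc2a2. Nearest to Slc5a1 were Vom1r76 (0.11), Axin2 (0.12) and Clec2l (0.13), and nearest to Slc5a10 were Lrrtm4 (0.12) and Adam9 (0.15).

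Other genes of the same 3 families were taken by symbol, 24 of them on the array and 21 tested. By limma 0 of the 21 passed an adjusted p of 0.05; at an unadjusted p under 0.05, 2 lay higher and 3 lower. Their median difference was 0.09 log2, against 0.03 for all features. Slc2a5, the fructose carrier GLUT5, had the largest difference: its log2 signal was 2.95, 2.95 and 2.45 with corn oil and 2.09, 1.72 and 1.76 with o-nitroanisole, without overlap. The difference was -0.93 ± 0.18 log2 (limma adjusted p = 0.116, lower in 3 of 3 treated rats), with probes from -0.99 to -0.93. The lactate exporter MCT4 gene, Slc16a3, lay at 0.50 ± 0.33 and Slc16a5 at 0.49 ± 0.23 log2 (limma adjusted p = 0.458 and 0.328), with groups that overlapped. The other probe of Slc16a5 gave 0.76 log2.

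Genes around these carriers were taken from 6 further lists, of accessory proteins, sugar and lactate metabolism, osmolytes, carboxylate substrates and tubule transcription factors. With the families above they held 129 tested genes, of which 0 passed an adjusted p of 0.05 by limma. At an unadjusted p under 0.05, 41 lay higher and 9 lower, 38.8% of the 129 against 18.9% of all features. With quantile scaling 23 lay higher and 11 lower at that p, 26.4% against 16.7%. The lists were chosen with earlier results of these data known. Every list gene is a named gene, while 11815 of the 32428 features have a gene name. Nothing is therefore read from these shares. Trend and robust moderation called 9 of the 129, 8 higher and 1 lower, where it called 1.61% of all features. Among those that lay higher were Gpd1, Sord, Pgam1, Pdk2, Bdh2, Slc13a2 and Slc13a3. None of the 129 was called with default moderation.

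Of 24 tested genes of gluconeogenesis and fructose use, 7 lay higher and 1 lower at an unadjusted p under 0.05 by limma, with a median of 0.13 log2. Higher values were in 18 genes, but in 14 with quantile scaling, where the median was 0.02 and 5 lay higher and 2 lower at that p. Fbp2, a fructose-bisphosphatase, lay at 0.60 ± 0.13, Pck1 at 0.57 ± 0.13 and Gpd1, a glycerol-phosphate dehydrogenase, at 0.47 ± 0.08 log2 (limma adjusted p = 0.128, 0.130 and 0.0982). All 3 were higher in 3 of 3 treated rats. The fructose enzyme gene Khk lay at -0.04 ± 0.09 log2, with its other probe at 0.0091, beside the lower fructose carrier Slc2a5.

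Of 28 tested genes of glycolysis and lactate handling, 12 lay higher and 3 lower at an unadjusted p under 0.05 by limma, with a median of 0.21 log2 (5 higher and 3 lower with quantile scaling). Ldhc, the lactate dehydrogenase of testis, lay at -1.44 ± 0.32 log2 (limma adjusted p = 0.129) and was not well above background on 1 of 3 treated arrays. Pfkfb1 and Pfkfb4, which set the level of a glycolytic activator, lay at 0.49 ± 0.19 and 0.46 ± 0.19 (limma adjusted p = 0.242 and 0.266). Ldhb, which favours the use of lactate, lay at 0.38 ± 0.10 and Ldha at 0.28 ± 0.16 log2, with its other probe at 0.0068.

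Of 18 tested genes of ketone, nicotinate, urate and dicarboxylate handling, 9 lay higher and 0 lower at an unadjusted p under 0.05 by limma, with a median of 0.20 log2. Slc25a10 lay at 0.56 ± 0.11, Slc13a2, the sodium-coupled citrate and succinate carrier of the brush border, at 0.48 ± 0.07, and Bdh2 at 0.43 ± 0.08 log2 (limma adjusted p = 0.117, 0.0910 and 0.110). Slc13a2, with log2 signals of 4.94, 5.07 and 5.03 with corn oil and 5.43, 5.54 and 5.52 with o-nitroanisole, lay higher in every treated rat. Its 3 probes ranged from 0.10 to 0.52.

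Of 17 tested partners of these carriers, 6 lay higher and 1 lower at an unadjusted p under 0.05 by limma, with a median of 0.02 log2 (-0.03 with quantile scaling, where 0 lay higher and 1 lower at that p). Pdzk1ip1, which encodes MAP17, the accessory protein of SGLT2, lay at 0.00 ± 0.08, and Bsg, which carries MCT1 to the membrane, at 0.18 ± 0.07 log2, with its other probe at 0.08. The kinase genes Sgk1 and Sgk2 lay at -0.77 ± 0.46 and 0.46 ± 0.17 (limma adjusted p = 0.423 and 0.228). The groups of Sgk1 overlapped, and it is not the gene counted as lower.

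Of 13 tested genes of osmolytes and inositol, the setting of Slc5a3, 4 lay higher and 0 lower at an unadjusted p under 0.05 by limma, with a median of 0.12 log2. Chdh, which makes betaine from choline, lay at 0.60 ± 0.13, Impa2, an inositol monophosphatase, at 0.32 ± 0.09 and the taurine carrier Slc6a6 at 0.28 ± 0.06 log2 (limma adjusted p = 0.128, 0.165 and 0.132). Nfat5, the tonicity factor, lay at -0.07 ± 0.06. Of 8 tested transcription factor genes 1 lay higher and 1 lower at that p, with a median of 0.08 log2. Ppara lay at 0.82 ± 0.46, Maf at -0.60 ± 0.22 and Tfcp2l1 at 0.44 ± 0.10 log2 (limma adjusted p = 0.393, 0.223 and 0.128). Hnf4a, a factor of the proximal tubule, lay at 0.11 ± 0.12, with 3 probes from 0.03 to 0.15.

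**Figure D4:**
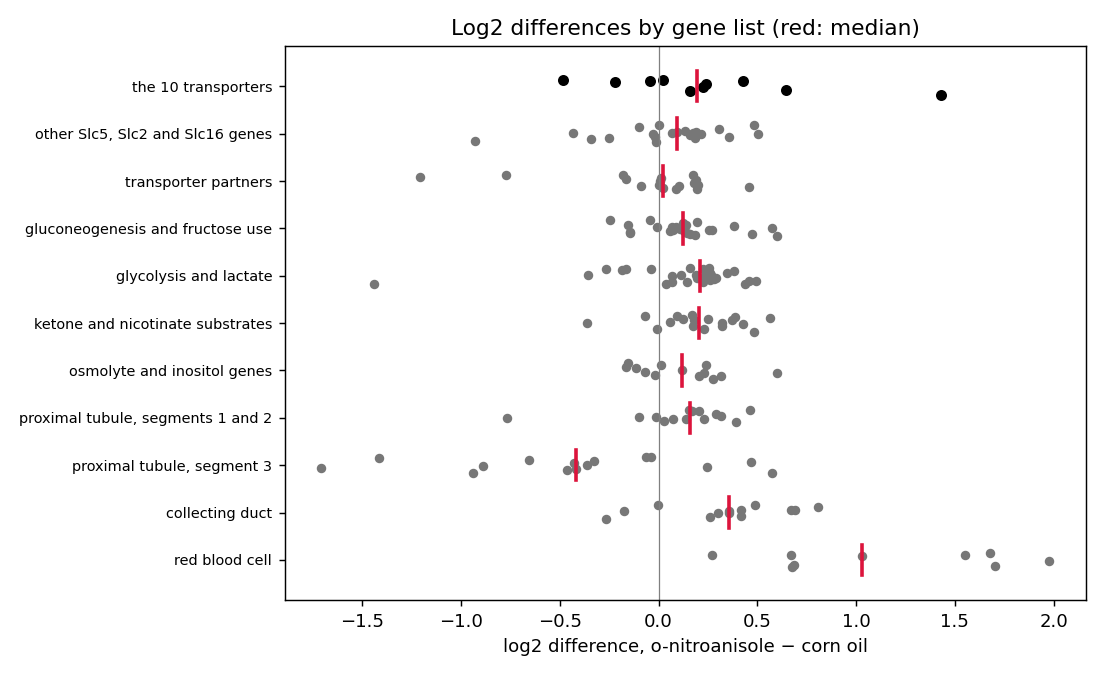
The horizontal axis is the log2 difference, o-nitroanisole minus corn oil. Each point is a gene, by its brightest probe, and red bars are medians, with points spread vertically for legibility. The segment 3 markers have a median of -0.42 and the red blood cell markers 1.03, while the lists of metabolism and transport lie nearer to 0.

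Markers were looked at beside the tissue label. Being well above background does not tell cortex from medulla here, since the medulla marker Cryab was so on all arrays. Of 15 markers of proximal tubule segments 1 and 2, 14 were tested, with Slc34a1 and Lrp2 well above background on all arrays. They had a median of 0.16 log2, with 4 higher and 1 lower at an unadjusted p under 0.05 by limma (1 higher and 2 lower with quantile scaling). The largest difference was that of Gatm, at -0.77 ± 0.20 log2 (limma adjusted p = 0.151), with its other probe at -0.43. Their summed signal was 1011 to 1084 times the 75th percentile with corn oil and 1126 to 1192 with o-nitroanisole. These ranges do not overlap, as for Slc5a2, Slc5a12 and Slc2a2, which belong to the same segments. This is not particular to these segments. The sums of the collecting duct markers (282 to 312 and 334 to 380) and of the gluconeogenesis list (2147 to 2197 and 2352 to 2416) did not overlap either. Of the 14 segment markers 11 lay above 0 and 3 below, with Lrp2 at -0.10 log2. The markers with the highest signals weigh most in the sum, so it does not describe the list as a whole. Among these, Slc34a1 lay at -0.01, Slc22a6 at 0.29 ± 0.07 and Slc22a8 at 0.31 ± 0.06 log2. The 15 segment 3 markers, all tested, had a median of -0.42 log2, with 3 above 0 and 12 below. Bcat1, among the 3 above 0, met the filter for dim probes in the o-nitroanisole group only. At an unadjusted p under 0.05 by limma, 1 of the 15 lay higher and 8 lower. The 1 that lay higher was Pck1, which is also in the gluconeogenesis list. The largest difference was that of Slco1a6, at -1.71 ± 0.36 log2 (limma adjusted p = 0.123). Their summed signal overlapped between groups, at 820 to 979 and 761 to 923. Slc5a1 lay lower as most of these markers did, and Slc5a8, also a late segment gene, lay higher. The part of cell make-up in the transporters' differences was not tested.

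All 9 tested red blood cell markers lay higher, with a median of 1.03 log2 and summed signals of 441 to 509 with corn oil and 682 to 832 with o-nitroanisole. Slc2a1 was at 0.02 beside them. Of the 9 markers, Hemgn met the filter for dim probes in the o-nitroanisole group only. Its place among the 9 therefore depended on the group where it lay higher. Rhag, also on the array, was not tested. The largest difference was that of Ahsp, at 1.98 ± 0.36 log2 (limma adjusted p = 0.109). Of 13 collecting duct markers 10 lay higher and 0 lower at an unadjusted p under 0.05 by limma, with a median of 0.36 log2. Of all features 11.8% lay higher and 7.12% lower at that p. Slc4a1, at 0.67 ± 0.17 log2, is a marker in both this list and that of red blood cells. Aqp4 was at 0.81 ± 0.11 log2 (limma adjusted p = 0.0880), with 4 probes from 0.06 to 0.84. Medians were 0.03 for 9 markers of the loop of Henle and distal tubule, 0.03 for 8 of medulla and papilla, 0.04 for 7 of podocytes, 0.07 for 9 of endothelium, and -0.16 for 9 of fibroblasts and vessel wall. At an unadjusted p under 0.05 by limma these lists held 1 higher and 3 lower, 0 and 1, 1 and 1, 0 and 0, and 1 and 2, in that order. The 14 tested white blood cell markers had a median of -0.02 log2 and both signs: 6 were above 0 and 8 below, and 4 lay higher and 0 lower at that p. These 4 were S100a8 at 1.76 ± 0.27, S100a9 at 1.15 ± 0.19, Cd14 at 0.51 ± 0.08 and Cd74 at 0.50 ± 0.11 log2 (limma adjusted p = 0.0961, 0.103, 0.0979 and 0.133), of which S100a9, Cd14 and Cd74 were named after their values were seen. Their list's summed signal was 42.8 to 45.1 with corn oil and 50.1 to 54.5 with o-nitroanisole. Cd74 gave the largest part of this sum. Its log2 signal was 4.44, 4.59 and 4.71 with corn oil and 5.04, 5.25 and 4.94 with o-nitroanisole. The sum therefore does not describe the list as a whole. The part of these cells in the transporters' values was not tested.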

How the data were processed

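Scanner files, 1 for each rat, and a value table were read. Per the file headers the authors' files hold spot intensity values: a processed signal, whose background and spatial correction settings are not given in the sources used here, and raw and local background signals. Per the submitters' processing notes they come from Agilent Feature Extraction 10.7. The deposited value table is a ratio on a linear scale, not centred: every column is 1 scanner file's processed signal divided by that file's 75th percentile, within a tolerance of 1% for 100% of probes well above background. Its corn oil columns follow another order (columns 1, 2 and 3 hold replicates 3, 1 and 2), so the numbers of the corn oil rats are not settled; groups are not affected. Scanner files were used.

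Probes were named by RefSeq accession (27460 of 33356 matched, assembly GRCr8; the headers name build rn4, and the only coordinates given are GRCr8 promoters). The 84 spike-in probes and outlier spots were left out. Probes had to be well above background on all arrays of either group (41096 probes). The 32428 features, 1 for each gene or unnamed probe, were tested on log2 values, made here from the deposited processed signals, with limma 3.58.1 in R 4.3.3 and Benjamini-Hochberg adjustment at 0.05. The fit was tested on simulated data. Plots used matplotlib 3.10.9 in Python 3.11.15. Members, lists and motifs were chosen with earlier results of these data known. Named were all members, the 3 largest differences of each list, the largest of a marker list that moved with a result, and 3 nearest profiles for the 2 highest and 2 lowest members; other list genes were picked as examples with values known. Some genes that this rule names are not reported here.

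Alternatives were quantile and median scaling, normexp (offset 50, on median signals), no filter or a stricter one for dim probes, outlier spots kept, probes averaged or singly, trend and robust moderation, array weights, the value table, a replicate block and leaving out each array.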

Additional observations from a re-analysis of the deposited data

How the results depend on the processing

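The count of 0 features past an adjusted p of 0.05 by limma became 115 with normexp and 522 with trend and robust moderation, 359 at an adjusted p under 0.10, and 0 to 8 on leaving out 1 array (8 without corn oil replicate 3, 1 without corn oil replicate 1). With the replicate block it was 0, and the block changed no call. Same-numbered arrays' deviations correlated at 0.091, 0.058 and 0.026, under the 0.1 set for pairing. Both used the scanner files' numbers, which are not settled for the corn oil rats. In the value table's order the correlations were -0.00066, -0.029 and 0.034, and the block was not run in that order. The 522 became 0 to 67 on leaving out 1 array in that fit, an alternative chosen after seeing the data; the lowest was without o-nitroanisole replicate 2. Of the list genes, 9 passed an adjusted p of 0.05 with trend and robust moderation and 0 under the other fits run at that threshold; 2 had an adjusted p under 0.10 by default. The 5 transporters with groups that do not overlap became 3 with quantile scaling and 3 with probes averaged, and 5 to 6 on leaving out 1 array. Over 110 whole-table values of the 10 transporters, 1 moved by more than the replicate SD (Slc5a2, quantile scaling) and 2 turned sign (Slc2a1, Slc16a1). Many of these values had no room to move. The filters, kept outlier spots, trend and robust moderation and the replicate block left every transporter's difference unchanged. The value table holds the same scaled signals, and averaging cannot change a gene with 1 probe. The count over the 110 values therefore says little. Over 60 leave-one-out values 4 turned sign, for Slc5a3, Slc16a1 and Slc16a14, and over 9 other probes 0 did. The cause was not tested. A fit with slide as a block was not possible, because each slide holds 1 group. The median of all features lay between 0.01 and 0.05 log2 under each scaling. With 3 arrays per group, small differences are not resolved.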
